A study of Mus musculus with 12 samples.

Results

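Metallothioneins and zinc transporters of the mouse retina are described here through 5 genes: the metallothioneins Mt1, Mt2 and Mt3, the zinc exporter Slc30a1 (ZnT1) and the zinc importer Slc39a14 (ZIP14). They were taken by gene symbol from both deposited expression tables, each of which lists 25124 genes, and all 5 passed the filter on low values in both tables. Bulk retinas of wild-type C57BL/6J mice were profiled by poly(A)-enriched RNA sequencing, in 12 libraries that form 6 groups of 2. In the single-elevation table, intraocular pressure (IOP) was raised once to 30 mmHg for 1 h in 1 eye of mice aged 3 months (3mo IOP) or 18 months (18mo IOP), and the untreated fellow eyes gave 3mo control and 18mo control. In the repeated-elevation table, mice that were 3 months old at the start received 4 such elevations, 2 weeks apart, in 1 eye (4xIOP), and the untreated fellow eyes gave 4xIOP control. All retinas were taken 2 days after the last elevation, and every control was the other eye of a treated animal, so no retina came from an untouched mouse. No group is labelled with a transgene or a drug. The comparisons ask which genes respond to mild pressure stress, whether age alters that response, and what repeated stress adds.

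Metallothioneins are small cysteine-rich proteins that bind zinc and copper through their thiol groups, buffer free zinc and scavenge oxidants. Free zinc is sensed by the transcription factor MTF1, which binds short metal response elements and drives Mt1, Mt2 and Slc30a1, so that a cell with excess zinc both stores and exports it. Mt1 and Mt2 also respond to glucocorticoids and to cytokines that signal through gp130 and STAT3, whereas Mt3 is expressed mainly in the nervous system and responds little to metals. Slc39a14 carries zinc, iron and manganese into cells and is raised by inflammatory cytokines in liver.

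The 3 metallothionein genes lie side by side on the plus strand of chromosome 8 (mm10). Mt3 (NM_013603) spans 94152607 to 94154148, Mt2 (NM_008630) spans 94172618 to 94173567 and Mt1 (NM_013602) spans 94179089 to 94180327, each in 3 exons. From Mt3 to Mt2 there were 18469 bases, from Mt2 to Mt1 5521, and the whole stretch measured 27721 bases. Their transcripts are short, with 537 bases for Mt1, 551 for Mt2 and 533 for Mt3. The coding sequences (GENCODE M21) are printed because the cysteine codons, in capitals (TGC or TGT), are the metal-binding feature of the family and because a read of one member can match another only where the letters agree.
Mt1: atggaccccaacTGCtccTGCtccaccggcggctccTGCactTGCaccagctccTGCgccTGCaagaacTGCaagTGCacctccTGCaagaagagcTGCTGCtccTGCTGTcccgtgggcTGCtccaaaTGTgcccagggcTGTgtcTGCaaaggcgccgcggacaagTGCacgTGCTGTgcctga
Mt2: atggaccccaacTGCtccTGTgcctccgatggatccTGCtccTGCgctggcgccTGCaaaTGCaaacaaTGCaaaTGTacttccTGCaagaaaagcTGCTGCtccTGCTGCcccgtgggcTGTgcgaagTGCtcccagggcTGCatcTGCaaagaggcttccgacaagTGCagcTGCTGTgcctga
Mt3: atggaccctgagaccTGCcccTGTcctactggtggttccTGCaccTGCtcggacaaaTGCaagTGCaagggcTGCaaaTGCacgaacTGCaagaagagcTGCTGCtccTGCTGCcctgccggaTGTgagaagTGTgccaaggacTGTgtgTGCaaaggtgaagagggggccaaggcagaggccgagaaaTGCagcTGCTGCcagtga
Each of the 3 reading frames held 20 cysteine codons, out of 61 codons in Mt1 and Mt2 and 68 in Mt3. Mt1 and Mt2 were identical at 79.6% of aligned bases, Mt1 and Mt3 at 66.2%, and Mt2 and Mt3 at 67.6%. The longest run of identical bases between whole transcripts was 20 for Mt1 with Mt2, 27 for Mt1 with Mt3 and 20 for Mt2 with Mt3, and the counting used uniquely mapped reads. An antisense gene, Gm45774, overlaps Mt2 by 795 bases on the opposite strand, and the counting used strand.

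Slc30a1 (NM_009579) occupies 191906781 to 191913247 on the plus strand of chromosome 1, in 2 exons with a transcript of 5226 bases. The antisense gene 1700034H15Rik overlaps it by 747 bases on the opposite strand. Slc39a14 (NM_144808) occupies 70303467 to 70351424 on the minus strand of chromosome 14, in 10 exons with a transcript of 4915 bases. These 2 transporters therefore have transcripts far longer than the metallothioneins, a difference that bears on the age comparisons.

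Promoter windows were read from RefSeq (GRCm38.p6, the assembly of mm10) for 4 of the 5 genes, from 250 bases before to 30 bases after the annotated start. They are shown because MTF1 acts through the metal response element, whose core was searched as TGCACNC or TGCGCNC on both strands. Matches are in capitals, as read on the printed strand.
Mt1, chr8:94178839-94179118, plus strand: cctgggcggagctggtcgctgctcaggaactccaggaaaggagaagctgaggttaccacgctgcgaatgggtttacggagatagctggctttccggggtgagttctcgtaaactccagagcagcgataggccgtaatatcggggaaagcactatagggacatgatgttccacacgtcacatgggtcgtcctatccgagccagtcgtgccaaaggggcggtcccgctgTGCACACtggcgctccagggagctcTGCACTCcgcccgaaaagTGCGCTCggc
Mt2, chr8:94172368-94172647, plus strand: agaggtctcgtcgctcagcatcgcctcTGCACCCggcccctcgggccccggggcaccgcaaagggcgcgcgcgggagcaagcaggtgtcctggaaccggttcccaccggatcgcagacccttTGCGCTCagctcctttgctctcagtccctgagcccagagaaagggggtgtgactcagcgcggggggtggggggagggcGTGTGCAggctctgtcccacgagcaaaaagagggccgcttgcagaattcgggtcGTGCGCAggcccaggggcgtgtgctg
Mt3, chr8:94152357-94152636, plus strand: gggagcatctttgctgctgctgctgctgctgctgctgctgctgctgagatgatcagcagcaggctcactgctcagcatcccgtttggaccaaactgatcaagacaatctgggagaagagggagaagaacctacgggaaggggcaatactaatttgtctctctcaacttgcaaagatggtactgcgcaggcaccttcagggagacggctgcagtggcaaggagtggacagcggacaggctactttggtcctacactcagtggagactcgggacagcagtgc
Slc30a1, chr1:191906531-191906810, plus strand: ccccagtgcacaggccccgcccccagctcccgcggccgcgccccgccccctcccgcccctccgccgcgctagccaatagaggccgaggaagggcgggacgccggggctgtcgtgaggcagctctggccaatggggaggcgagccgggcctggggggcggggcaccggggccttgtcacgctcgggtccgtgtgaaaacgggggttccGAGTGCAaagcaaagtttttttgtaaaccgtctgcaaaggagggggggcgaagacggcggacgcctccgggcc
The Mt1 window held 3 matches, beginning at bases -23, 3 and 21 from the annotated start and all on the plus strand. The Mt2 window held 4, of which 2 lay on the plus strand and 2 on the minus strand. Slc30a1 had 1 match, on the minus strand at base -43, and Mt3 had 0. Of 32851 RefSeq windows of the same length, 24.1% held at least 1 match, 1.73% at least 3 and 0.405% at least 4. These are letter matches in windows fixed by the annotated start, and sequence farther downstream was not searched.

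**Figure D1:**
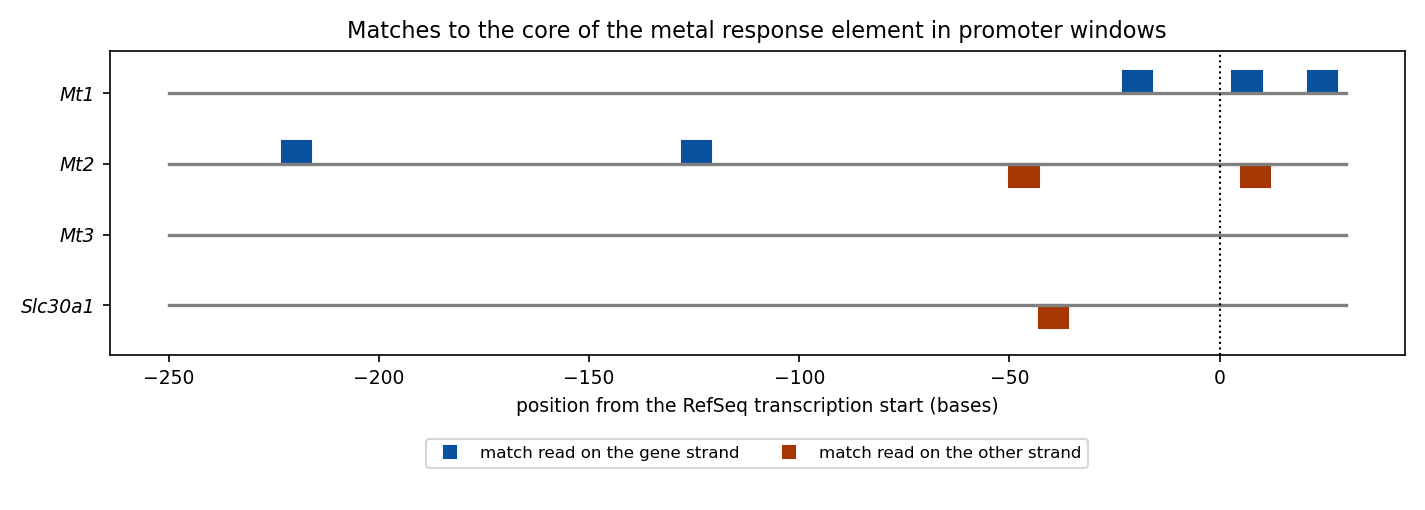
Matches to the core of the metal response element in the RefSeq promoter windows of 4 genes. The x axis gives the position from the annotated transcription start in bases, blue blocks are matches on the gene strand and brown blocks matches on the other strand. Mt1 shows 3 blocks, Mt2 4, Slc30a1 1 and Mt3 0.

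Depth and sample makeup were as follows. Values are FPKM (reads per kilobase of transcript, scaled to the tags of the library), and libraries held 39766235 to 59455054 mapped tags, of which 19726357 to 41653282 were reads in exons. The lowest count of any member was 176 reads, for Mt3, where the counting error alone is 7.54% of the value. Nothing in the labels says which eyes share an animal, so p-values measure the spread between these libraries. In bulk tissue, fewer cells of a type and less RNA per cell cannot be told apart. The 2 tables were fitted separately, and values from them are set side by side without a test.

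In every control library Mt1 was the most abundant member per length. In 3mo control it averaged 112 ± 41.8 FPKM (SD, n = 2), against 43.3 ± 11.7 for Mt2, 21.7 ± 12.4 for Mt3, 3.85 ± 0.877 for Slc30a1 and 2.62 ± 0.474 for Slc39a14. The same order held in 18mo control, with 64.3 ± 11.1 for Mt1, 48.7 ± 9.82 for Mt2, 7.74 ± 0.974 for Mt3, 4.86 ± 0.115 for Slc30a1 and 4.32 ± 0.190 for Slc39a14. In 4xIOP control, Mt1 averaged 43.3 ± 11.9 FPKM, Mt2 16.9 ± 4.69, Mt3 12.1 ± 4.51, Slc30a1 5.02 ± 0.411 and Slc39a14 4.06 ± 0.102. The treated groups kept Mt1 and Mt2 on top, at 204 ± 57.0 and 124 ± 34.0 in 3mo IOP, 230 ± 72.9 and 240 ± 113 in 18mo IOP, and 297 ± 136 and 205 ± 109 in 4xIOP. Mt3 averaged 31.6 ± 9.37, 21.4 ± 6.25 and 26.5 ± 11.1 FPKM in these groups. Slc30a1 averaged 4.51 ± 0.0297, 6.23 ± 0.716 and 5.67 ± 0.0799, and Slc39a14 3.19 ± 0.0672, 6.59 ± 1.10 and 6.22 ± 1.35.

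Not all neighbours in this order had means that differed beyond the spread between libraries. The means of Mt1 and Mt2 differed by less than the sum of their SDs in 18mo control and in all 3 treated groups, and those of Mt2 and Mt3 in 3mo control and 4xIOP control. Between the transporters this held in 3mo control, 18mo IOP and 4xIOP, and in the last 2 of these Slc39a14 had the higher mean. The other neighbours differed by more than that sum.

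**Figure D2:**
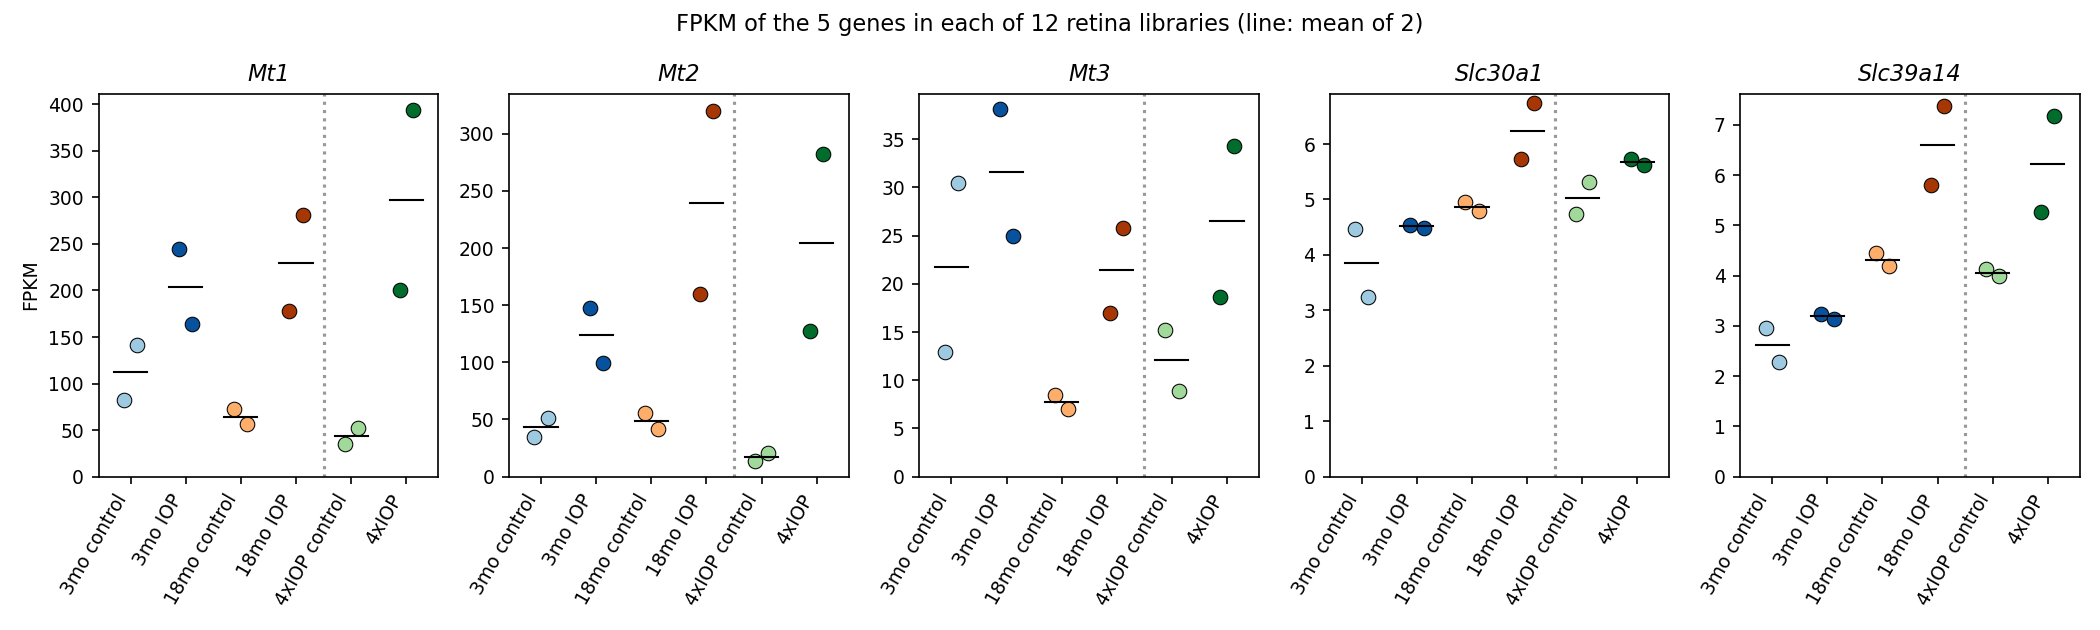
FPKM (y axis, linear and starting at 0) of each of the 5 genes in the 12 libraries, by group (x axis), with the line at the mean of 2 libraries and the dotted line between the 2 tables. Mt1 and Mt2 are higher in every IOP library than in the controls of their own set, with 4xIOP control lowest for Mt2 at 13.6 and 20.2 FPKM, while Slc30a1 stays between 3.23 and 6.74 FPKM.

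Repeated elevation gave the calls among treated against control eyes, in Mt1 and Mt2. Mt2, a metal and stress inducible buffer, stood at 13.6 and 20.2 FPKM in the 4xIOP control libraries and at 128 and 282 in the 4xIOP libraries. The groups were far apart, with means 12.1-fold different, and Mt2 rose by a log2 fold change of 3.48 (SE 0.380, limma adjusted p = 4.38e-05). Mt1, its close relative, stood at 34.8 and 51.7 FPKM in control eyes and at 201 and 394 in treated eyes. Mt1 rose 6.87-fold by means, a log2 fold change of 2.71 (SE 0.389, limma adjusted p = 0.000460). Both genes were thus higher in 2 of 2 treated libraries than in either control library. Among 13718 genes tested, Mt2 ranked 44 and Mt1 120 by log2 fold change.

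The other members differed less in that comparison. Mt3, the nervous system form, read 15.2 and 8.86 FPKM in control and 18.6 and 34.4 in 4xIOP. These values do not overlap, but the log2 fold change of 1.09 (SE 0.325) had an adjusted p of 0.0647 and missed the threshold in limma, and it ran from 0.65 to 1.52 with 1 library left out. It passed when genes averaging under 2 FPKM were left out (adjusted p = 0.0382) and with the replicate number as a block (adjusted p = 0.0357). Slc39a14 read 4.13 and 3.99 FPKM in control and 5.27 and 7.18 in 4xIOP, a log2 difference of 0.55 (adjusted p = 0.184, limma). Slc30a1, the exporter, read 4.73 and 5.31 in control and 5.73 and 5.62 in 4xIOP, a log2 difference of 0.16 with a 95% interval from -0.26 to 0.59. So 2 of the 5 members were called, with an adjusted p of at most 0.05 and at least a doubling, where 6.15% of tested genes were called. All 5 were higher without overlap, as were 27.7% of tested genes. Without 4xIOP control replicate 1, Mt1 kept a log2 fold change of 2.43 but had an adjusted p of 0.0660 in limma, and Mt2 alone was called. A group left with 1 library takes its spread from the remaining groups of the fit, here and wherever a library is left out. Whether 4 elevations gave a larger response than 1 was not tested, as the 2 tables were fitted separately.

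After a single elevation at 3 months, 0 of 5 members were called in limma, where 0.575% of tested genes were called. Of the members, 2 had an unadjusted p under 0.05, as did 1169 of 13731 tested genes. With voom on the recovered reads, 0 members were called as well, where only 3 of 13731 tested genes were called higher and 0 lower. Mt2 read 35.0 and 51.5 FPKM in 3mo control and 148 and 99.6 in 3mo IOP, without overlap. Its log2 difference of 1.50 (SE 0.371) had an unadjusted p of 0.00359 and an adjusted p of 0.168 in limma. Mt1 read 82.4 and 141 in control and 244 and 163 in treated eyes, so the higher control library came close to the lower treated one. Its log2 difference was 0.88 (95% interval 0.08 to 1.69, limma adjusted p = 0.507), and it was 0.50 without 3mo control replicate 1, 1.27 without 3mo control replicate 2 and 0.57 with a trend of transcript length removed. Mt3 overlapped between the groups, at 13.0 and 30.4 in control and 38.2 and 24.9 in 3mo IOP. The transporters differed little, Slc30a1 at 4.47 and 3.23 against 4.53 and 4.49, and Slc39a14 at 2.96 and 2.29 against 3.24 and 3.15. The log2 difference was 0.22 for Slc30a1 (95% interval -0.23 to 0.66) and 0.25 for Slc39a14 (95% interval -0.19 to 0.69). Without overlap, 4 of 5 members were higher, as were 28.6% of tested genes.

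After a single elevation at 18 months, again 0 of 5 members were called in limma, where 0.124% of tested genes were called. With voom no gene of the table was called, so the 0 members there add nothing. With the replicate numbers crossed as a block, chosen after seeing the data, Mt1, Mt2 and Mt3 were among 298 genes called higher. Mt2 read 55.6 and 41.7 FPKM in 18mo control and 160 and 320 in 18mo IOP. Its log2 difference was 2.22 (SE 0.371), with an unadjusted p of 0.000314 and an adjusted p of 0.0933 in limma. Mt1 read 72.1 and 56.4 in control and 178 and 281 in treated eyes, a log2 difference of 1.80 (SE 0.351, adjusted p = 0.115 in limma). The 2 genes were 4.93-fold and 3.57-fold higher by means and ranked 35 and 82 of 13731 tested genes by log2 fold change. Without 18mo IOP replicate 1, the lower treated library for both genes, Mt2 passed the test with a log2 fold change of 2.72 and an adjusted p of 0.0195, and with any of the other 3 libraries left out its adjusted p was 0.298 to 0.541.

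Mt3 in the aged retina read 8.43 and 7.06 FPKM in control and 17.0 and 25.8 in 18mo IOP, a log2 difference of 1.39 (SE 0.397, limma adjusted p = 0.227). Slc39a14 read 4.45 and 4.18 against 5.81 and 7.37, a log2 difference of 0.55 (95% interval 0.10 to 0.99, limma adjusted p = 0.350). Slc30a1 read 4.95 and 4.78 against 5.72 and 6.74, a log2 difference of 0.32 (95% interval -0.12 to 0.77). All 5 members were higher without overlap, as were 36.5% of tested genes. An unadjusted p under 0.05 was seen in 4 of 5, and in 1297 of 13731 tested genes. In the main fits of all 3 comparisons of treated with control eyes, Mt2 had the largest log2 difference of the 5 members and Slc30a1 the smallest. At 3 months Slc30a1 and Slc39a14 were close, at 0.22 and 0.25. Without 3mo control replicate 1, Mt3 was the smallest there at 0.020, with Slc30a1 at 0.42 and Slc39a14 at 0.41.

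Whether age altered the response was tested as an interaction. The response at 18 months exceeded that at 3 months by 0.92 log2 units for Mt1 (95% interval -0.22 to 2.06), 0.72 for Mt2 (-0.49 to 1.92) and 0.77 for Mt3 (-0.52 to 2.06). For Slc30a1 the excess was 0.11 (-0.52 to 0.73) and for Slc39a14 0.30 (-0.33 to 0.93). With 1 library left out the excess ran from 0.53 to 1.31 for Mt1, from 0.22 to 1.22 for Mt2, from 0.17 to 1.37 for Mt3 and from 0.14 to 0.46 for Slc39a14. Every interval included 0, and 0 members were called in limma (adjusted p = 0.9999 for each) or with voom, and 0 had an unadjusted p under 0.05. No gene of the table was called (0%) in limma or with voom, and 218 had an unadjusted p under 0.05 in limma. A larger response at 18 months was therefore not detectable with 2 libraries per group.

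**Figure D3:**
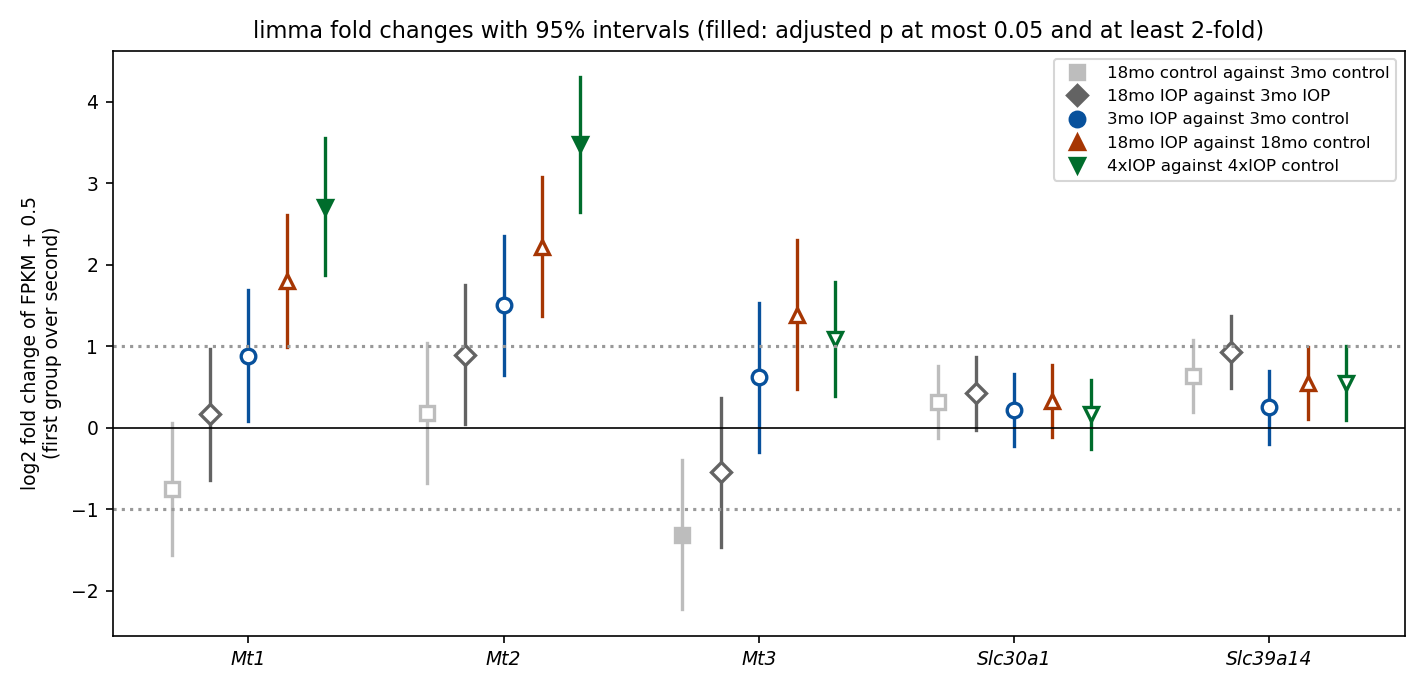
limma log2 fold changes (y axis) of the 5 genes (x axis) in 5 comparisons, with 95% intervals as lines and dotted lines at a doubling and a halving. Filled symbols passed the test, which were Mt1 and Mt2 in 4xIOP against 4xIOP control and Mt3 in 18mo control against 3mo control.

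The balance between Mt1 and Mt2 differed between treated and control libraries. Depth cancels in their ratio within a library, and transcript length nearly so, since the transcripts measure 537 and 551 bases. Mt1 FPKM over Mt2 FPKM was 2.35 and 2.75 in 3mo control and 1.65 and 1.64 in 3mo IOP. It was 1.30 and 1.35 in 18mo control and 1.12 and 0.879 in 18mo IOP. In the repeated-elevation table it was 2.56 and 2.56 in control and 1.57 and 1.40 in 4xIOP. In each of the 3 sets both treated libraries lay below both controls, and the treated-to-control fold of the ratio was 0.648 at 3 months, 0.747 at 18 months and 0.579 after 4 elevations. Over the 3 sets the ratio was 0.655 times that of controls, with p = 0.00926 in a two-sided exact permutation test within sets (216 arrangements, the smallest p they allow). Adjusted over the 2 ratio contrasts made, that p was 0.0185. The test shuffled all eyes of a set freely and did not keep fellow eyes as pairs, since the labels do not match them. With pairs kept, fewer arrangements would be possible and the smallest p would be larger.

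The same ratio was lower at 18 months. It was 0.521 times as high in 18mo control as in 3mo control, and 0.601 times in 18mo IOP as in 3mo IOP, without overlap in either pair. The combined fold was 0.560, with p = 0.0556 in the same two-sided exact permutation test. That is the smallest p its 36 arrangements allow, so the test could not pass 0.05. It shuffled control and treated eyes as independent, although they may be fellow eyes of the same animals. The p counts libraries, not animals, and may be too small for that reason. In 18mo IOP replicate 2, Mt2 exceeded Mt1 per length, the only library of the 12 in which it did. Mt3 made up a smaller part of the summed metallothionein FPKM in treated than in control libraries of each set, at 9.94% and 13.6% in 3mo control against 8.88% and 8.66% in 3mo IOP. Its share was 6.19% and 6.71% in 18mo control and 4.79% and 4.12% in 18mo IOP. After 4 elevations it was 5.36% and 4.84%, against 23.9% and 11.0% in the fellow eyes.

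**Figure D4:**
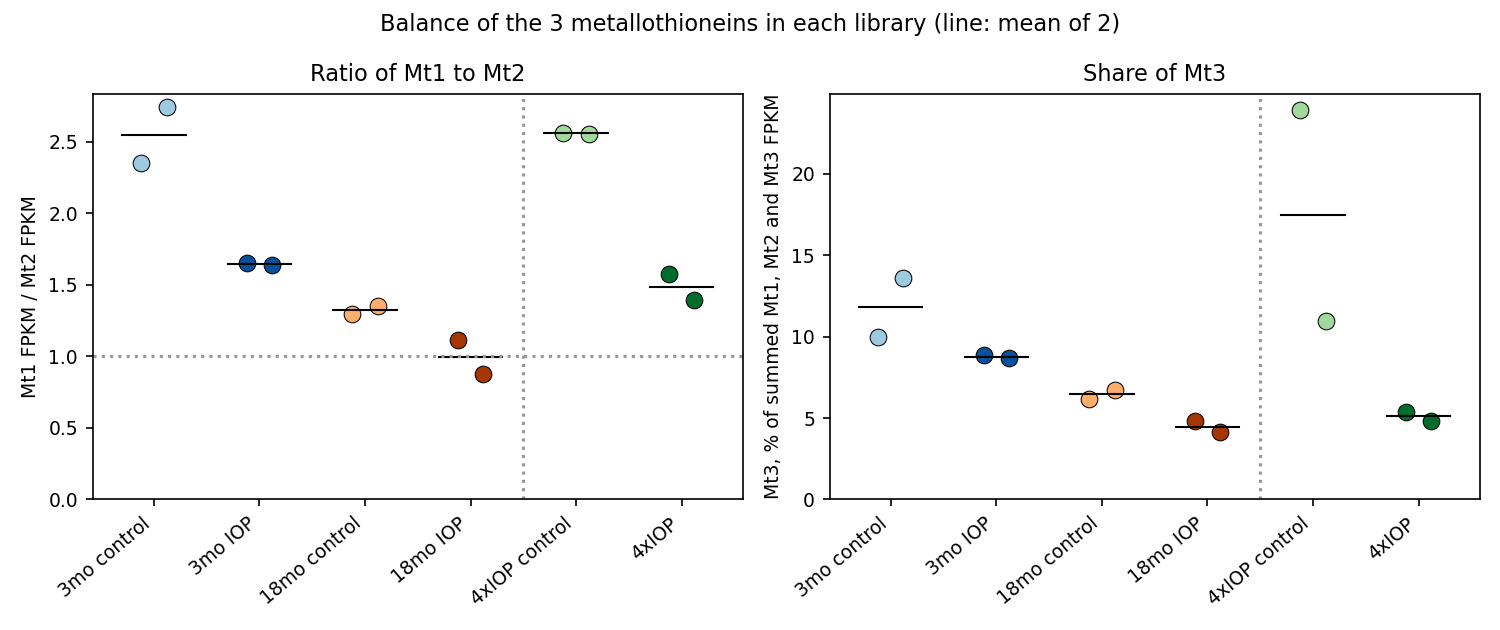
Left, Mt1 FPKM divided by Mt2 FPKM in each library (y axis), with a dotted line at 1, and right, Mt3 as a percentage of the summed FPKM of the 3 metallothioneins. Groups are on the x axis and horizontal lines are means of 2 libraries. Ratios run from 2.75 in a 3mo control library to 0.879 in an 18mo IOP library, and treated libraries lie below their controls in each set.

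With age alone, in control eyes, Mt3 fell, a call that was lost when any of 3 libraries was left out or transcript length was allowed for, and Slc39a14 was higher by less than a doubling, which no longer passed on p under the same settings and others. Mt3 dropped from 13.0 and 30.4 FPKM in 3mo control to 8.43 and 7.06 in 18mo control, a log2 fold change of -1.31 (SE 0.397, limma adjusted p = 0.0287). It was the only member called of 5, where 23.2% of tested genes were called and 11.6% were called lower. The 3mo control libraries differed among themselves by more than a doubling of Mt3. Without the higher one, replicate 2, the log2 difference was -0.71 and no longer a call, and without replicate 1 it was -1.91. The call was also lost without 18mo control replicate 1 (adjusted p = 0.0813) and without 18mo control replicate 2 (adjusted p = 0.128), and with no filter on low values it was at 0.0617. Slc39a14 read 2.96 and 2.29 in 3mo control and 4.45 and 4.18 in 18mo control, a log2 difference of 0.63 (SE 0.193, limma adjusted p = 0.0297) that passed on p and was below a doubling on that scale. Its adjusted p was above 0.05 with the length trend removed (0.324), with size factors (0.0680), with voom (0.0655), with no filter (0.0547), with the replicate block (0.0546), on the 2 groups alone (0.0723) and with 3 of the 4 libraries left out in turn (0.0979 to 0.145). By adjusted p alone, 2 of 5 members and 45.9% of tested genes passed.

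Mt1 and Mt2 parted in that comparison. Mt1 was lower in both 18mo control libraries, by a log2 difference of -0.75 (SE 0.351, limma adjusted p = 0.109). It was called without 3mo control replicate 1, at -1.14 (adjusted p = 0.0312), and was at -0.37 (adjusted p = 0.451) without 3mo control replicate 2. Mt2 overlapped between the ages, with a log2 difference of 0.18 (95% interval -0.68 to 1.03). Slc30a1 was higher by 0.32 without overlap (limma adjusted p = 0.206). For comparison, the median over all tested genes was 0.16. Of the 5 members, 2 were higher and 2 lower without overlap, against 45.7% and 32.8% of tested genes.

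In treated eyes, Slc39a14 again passed on p and no member was called. Slc39a14 read 3.24 and 3.15 FPKM in 3mo IOP and 5.81 and 7.37 in 18mo IOP, a log2 difference of 0.93 (SE 0.193, limma adjusted p = 0.0102) just below a doubling on that scale. With 1 library left out its adjusted p ranged from 0.0229 to 0.0670 and was above 0.05 in 3 of 4 cases, while without 18mo IOP replicate 1 its log2 fold change of 1.09 became a call. Mt2 differed by 0.90 (SE 0.371, limma adjusted p = 0.0833), from 148 and 99.6 FPKM to 160 and 320. It passed without 18mo IOP replicate 1, at 1.40 (adjusted p = 0.0353), and was at 0.39 (adjusted p = 0.422) without 18mo IOP replicate 2. Mt1 and Mt3 overlapped between the ages, with log2 differences of 0.16 and -0.55. Slc30a1 differed by 0.42 (limma adjusted p = 0.108), without overlap. In limma and with voom, 0 of 5 were called, where 21.8% of tested genes were called in limma. An unadjusted p under 0.05 was seen in 2 of 5, and in 7273 of 13731 tested genes. On adjusted p alone 1 of 5 passed, where 42.6% did, and 3 of 5 were higher without overlap, where 43.2% were.

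Transcript length tracked the age difference across the whole table, and the metallothioneins sit at its short end. Among 315 tested transcripts from 450 to below 650 bases, the median log2 fold change of 18mo control over 3mo control was -1.24, and 55.2% were called lower, against 0.49 and 2.17% for 3873 transcripts of at least 4000 bases. Short coding transcripts (below 1000 bases) had a median FPKM 1.89 and 4.70 times that of long ones (4000 bases or longer) in 3mo control, and 3.26 and 2.99 times in 3mo IOP. At 18 months this ratio was 1.28 and 1.21 in control and 1.20 and 1.36 in treated eyes. The 3mo control library with the highest Mt3 was thus also the one with the highest ratio of short to long transcripts. The value of Mt3 lay near the median of its length class, while Mt2, at 0.18, lay well above it. With a smooth trend of length removed, Mt3 had a log2 difference of -0.32 (limma adjusted p = 0.260) and was no longer called. Mt1 turned from -0.75 to 0.23 (limma adjusted p = 0.426). Mt2 went from 0.18 to 1.16 (limma adjusted p = 0.0159), past the test. Slc39a14 went from 0.63 to 0.23 (limma adjusted p = 0.324).

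The same was seen in treated eyes, where the length class of the metallothioneins had a median of -1.33. With the trend removed, the log2 difference of 18mo IOP over 3mo IOP was 1.22 for Mt1 (limma adjusted p = 0.00614) and 1.95 for Mt2 (limma adjusted p = 0.00367), both past the test. Mt3 turned from -0.55 to 0.51 (limma adjusted p = 0.0977), and Slc39a14 went from 0.93 to 0.54 (limma adjusted p = 0.0439). Whether the trend came from the RNA, the libraries or the tissue was not tested. In the comparisons of treated with control eyes the class medians were nearer 0, at 0.24 at 3 months, 0.22 at 18 months and 0.12 after 4 elevations. Of the metallothionein length class, 1.27%, 0.317% and 11.6% were called higher (4, 1 and 39 genes), against 0.129%, 0.103% and 2.72% of transcripts of at least 4000 bases. The 4xIOP calls of Mt1 and Mt2 held with the trend removed, at 2.40 and 3.16.

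**Figure D5:**
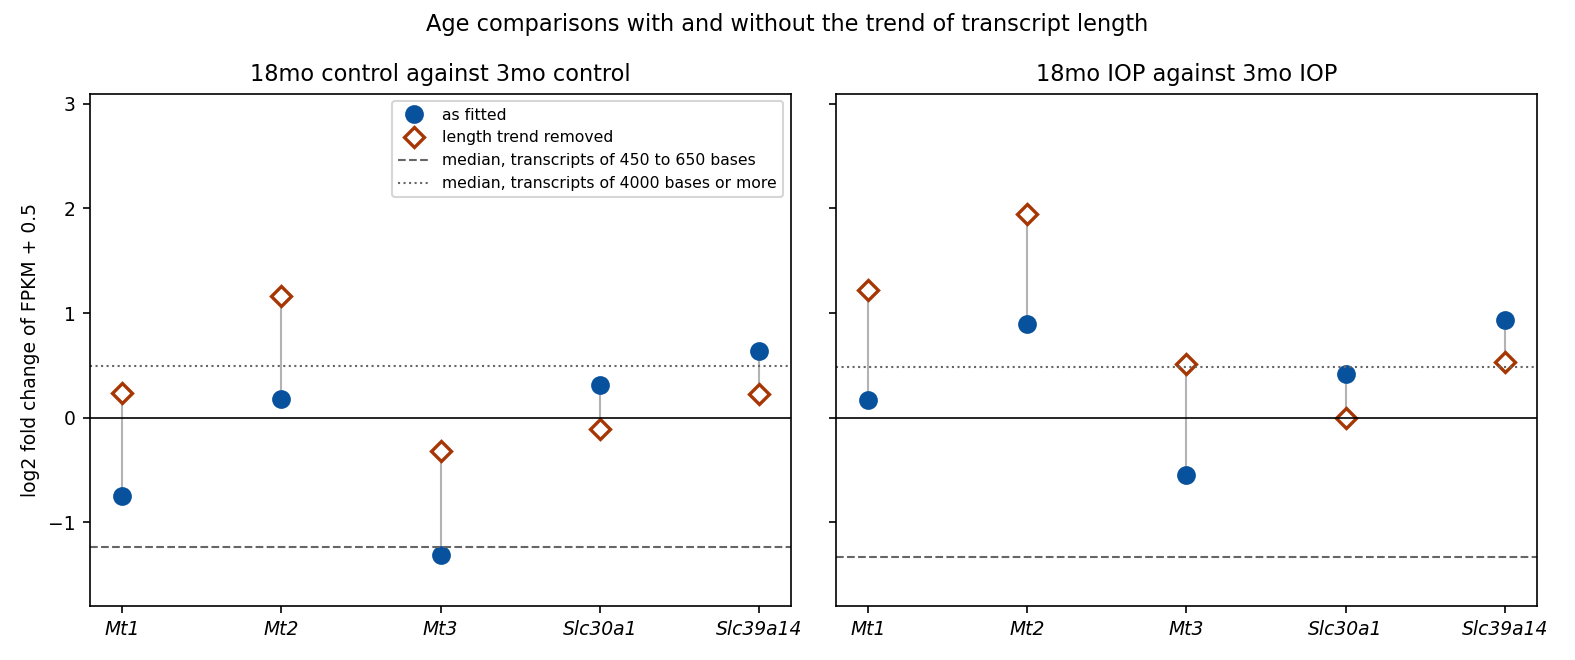
log2 fold changes with age (y axis) of the 5 genes (x axis) in control eyes (left) and treated eyes (right), as fitted (filled circles) and with the trend of transcript length removed (open diamonds). Dashed and dotted lines are the medians of transcripts from 450 to below 650 bases (-1.24 left, -1.33 right) and of transcripts of at least 4000 bases (0.49 left, 0.48 right). Mt3 lies on the dashed line at left, and Mt2 lies above it in both panels.

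Other zinc genes were followed as a list of 24: the sensor Mtf1, the remaining metallothionein Mt4, and the remaining exporters of the Slc30 and importers of the Slc39 families. Mt4, a form of stratified epithelia, had no read in any of 12 libraries, where 3 reads is taken as the limit that a count of 0 allows. After the filter, 17 of the 24 could be tested in the single-elevation libraries and 16 in the others. After a single elevation, 0 of 17 were called in limma at 3 months and 0 of 17 at 18 months (unadjusted p under 0.05 in 2 and 1), with median log2 differences of 0.17 and 0.05 against 0.13 and 0.09 for all tested genes. These counts stand beside 0.575% and 0.124% of all tested genes called, and those by unadjusted p beside 1169 and 1297 of 13731 tested genes. After 4 elevations 1 of 16 was called, where 6.15% of all tested genes were, with a list median of 0.13 against 0.10. The share of zinc genes called was thus near that of all genes in these 3 comparisons of treated with control eyes.

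The zinc gene called after 4 elevations was Slc39a1 (ZIP1), a plasma membrane zinc importer on chromosome 3 (90248192 to 90253612, plus strand). It read 5.96 and 6.21 FPKM in 4xIOP control and 15.8 and 17.6 in 4xIOP, a log2 fold change of 1.38 (SE 0.215, limma adjusted p = 0.000876). After a single elevation it was also higher without overlap, at 5.08 and 7.94 against 16.7 and 13.5 FPKM at 3 months, a log2 difference of 1.18 (limma adjusted p = 0.116). At 18 months it read 11.1 and 8.33 in control and 16.9 and 21.2 in treated eyes, a log2 difference of 0.94 (limma adjusted p = 0.201). Its difference was larger than that of Slc39a14 in each of the 3 sets, a contrast between the importers that was not tested. Mtf1, which senses zinc, read 3.47 and 3.60 FPKM in 4xIOP control and 3.07 and 2.74 in 4xIOP (log2 difference -0.25, limma adjusted p = 0.721). With age Mtf1 was higher without overlap, at 3.06 and 2.20 FPKM in 3mo control against 5.40 and 5.14 in 18mo control, and at 2.99 and 2.98 in 3mo IOP against 4.76 and 5.94 in 18mo IOP. The log2 differences were 0.90 (limma adjusted p = 0.0109) and 0.74 (limma adjusted p = 0.0219), which passed on p and were below a doubling on that scale, and the length trend was not removed for this gene.

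With age, 1 of 17 zinc genes was called lower in control eyes and 1 of 17 in treated eyes, where 11.6% of all tested genes were called lower in each. In limma 0 were called higher in either, where 11.6% and 10.2% of all tested genes were called higher. At an unadjusted p under 0.05, 9 and 7 of the 17 passed, with 5 and 4 higher and 4 and 3 lower. Over all tested genes, 7568 and 7273 of 13731 passed in that way. The gene called lower in both was Slc39a12 (ZIP12), a zinc importer on chromosome 2 (14388398 to 14494977, plus strand), at 1.31 and 1.44 FPKM in 3mo control and 0.129 and 0.161 in 18mo control. Its log2 fold change was -1.54 (SE 0.246, limma adjusted p = 0.00564) in control eyes. In treated eyes it was 1.72 and 2.29 FPKM at 3 months and 0.219 and 0.025 at 18 months, a log2 fold change of -2.02 (SE 0.246, limma adjusted p = 0.00290). The 18mo control values stand for about 15 and 20 recovered reads and those of 18mo IOP for about 32 and 4. The summed level of 5 markers of the retinal pigment epithelium, a layer next to the retina that can come along in dissection, was lower at 18 months too, with 4 of 4 tested markers called lower in both comparisons. It was 64.9 to 67.4 FPKM in 3mo control, 57.8 to 148 in 3mo IOP, 1.88 to 3.89 in 18mo control and 1.93 to 2.44 in 18mo IOP, and its part in the difference was not tested.

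Signals known to induce metallothioneins were followed through 2 lists, one of other glucocorticoid targets and one of components and targets of the gp130 and STAT3 pathway. Of 10 glucocorticoid targets, 8 could be tested, and 0 were called in limma in any of the 3 comparisons of treated with control eyes. An unadjusted p under 0.05 was seen in 0, 2 and 2 of them. Over all tested genes it was seen in 1169 and 1297 of 13731 and in 2119 of 13718. The list medians were 0.12, 0.16 and 0.09 against 0.13, 0.09 and 0.10 for all tested genes. Of the genes of the gp130 and STAT3 pathway, 3 of 10 were called higher at 3 months, 1 of 10 at 18 months and 9 of 9 after 4 elevations, where 0.568%, 0.117% and 5.45% of all tested genes were called higher. Their median log2 differences were 1.56, 1.64 and 2.15. The call at 18 months depended on the setting. No gene of the table was called there with a pseudocount of 0.1, size factors, voom, the replicate block or the 2 groups alone. At 3 months voom called 3 genes of the table higher. With age, 8 of 10 were called higher in control eyes and 8 of 10 in treated eyes, with medians of 1.70 and 1.99 against 0.16 and 0.09 for all tested genes. Glucocorticoid targets were called higher in 1 of 8 and 2 of 8, where 11.6% and 10.2% of all tested genes were called higher. The length trend was not removed for either list. These counts say nothing of what drove Mt1 or Mt2, which was not tested.

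Cell type markers differed between the same groups as the metallothioneins. Markers of rod photoreceptors, the main cell of the mouse retina, summed to at least 4575 FPKM in every library. The sum of these 6 markers was 9297 to 9707 in 4xIOP control and 4575 to 6877 in 4xIOP, with 0 of 6 called in limma. The sum of 4 astrocyte markers was 7.97 to 8.52 against 48.2 to 56.5, with 2 of 3 tested called higher, where 5.45% of all tested genes were. The sum of 6 microglia and leukocyte markers was 2.99 to 3.19 against 32.2 to 37.6, with 5 of 6 called higher. Lens markers, 5 genes of a neighbouring tissue, summed to 0.365 to 2.81 against 30.4 to 73.8, with 4 of 4 tested called higher, and Mip among them was at 0 in 4 of 12 libraries. Müller glia markers summed to 742 to 777 against 443 to 565, although 4 of 6 were higher and 2 lower, all without overlap, with 1 called higher, 0 called lower in limma and a median log2 difference of 0.44 against 0.10 for all tested genes. Those of the pigment epithelium summed to at least 9.03 in control against at most 2.72 in treated libraries, with 3 of 3 tested called lower, where 0.693% of all tested genes were.

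In the single-elevation libraries the rod sum was 20565 to 23456 FPKM in 3mo control, 20447 to 21230 in 3mo IOP, 15318 to 17154 in 18mo control and 11616 to 13876 in 18mo IOP. Astrocyte markers were at 7.45 to 12.1 FPKM in 3mo control, 37.0 to 40.4 in 3mo IOP, 10.8 to 11.6 in 18mo control and 43.3 to 103 in 18mo IOP. Gfap, 1 of these markers, averaged 2.11, 28.1, 4.63 and 59.4 FPKM in the same order. The sums therefore follow mostly that gene and are no count of astrocytes. Microglia and leukocyte markers were at 5.36 to 6.93, 10.2 to 11.0, 15.2 to 17.8 and 14.8 to 41.8 in the same order. In 18mo IOP, replicate 2 had the higher Mt1, Mt2 and Mt3. Its sums were higher for the zinc, glucocorticoid, gp130 and STAT3, rod, astrocyte and lens lists. They were lower for the leukocyte, Müller glia, pigment epithelium, blood and endothelial markers. Its ratio of short to long transcripts was also higher, at 1.36 against 1.20 in replicate 1. Lens markers were at 6.90 to 10.4, 3.85 to 22.6, 1.77 to 2.47 and 3.33 to 12.5 in that order. Blood markers varied between replicates, from 19.5 to 262 FPKM in 3mo control and from 166 to 426 in 18mo control, and were at 29.3 to 313 in 3mo IOP, 44.3 to 54.3 in 18mo IOP, 37.3 to 56.1 in 4xIOP control and 37.5 to 56.8 in 4xIOP. Müller glia markers summed to 463 to 593 FPKM in 3mo control, 480 to 649 in 3mo IOP, 946 to 1211 in 18mo control and 1218 to 1372 in 18mo IOP. Of 6, 3 were called higher with age in control eyes, and 0 in limma in 18mo IOP against 18mo control. In the latter, 4 were higher without overlap and 4 had an unadjusted p under 0.05. Over all tested genes these were 36.5% and 1297 of 13731. With age in control eyes, 4 endothelial markers went from 3.18 to 4.67 to 32.8 to 34.7, with 4 of 4 called higher, where 11.6% of all tested genes were. The part of cell makeup in the metallothionein differences was not tested.

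Genes with the pattern most like each member were ranked by Pearson's r of log2 values over the 8 single-elevation libraries, which share groups, depth and the length trend, so r is given as a description. Nearest to Mt1 were Anxa5 (r = 0.98), Nr1h4 (0.97) and Dhrs4 (0.97). Nearest to Mt2 were Fam114a1, Cnn3 and Hsd17b2, each between 0.98 and 0.99. Mt1 correlated with Mt3 at 0.89 and with Mt2 at 0.88, which placed them at ranks 141 and 149 for Mt1, and Mt2 with Mt3 at 0.58. Nearest to Mt3 were 2310001H17Rik (0.99), Cib1 (0.98) and Psmb10 (0.97). Plekha4, Mindy2 and Pitrm1 were nearest to Slc30a1, and Gm10030, Map4k4 and Itga9 to Slc39a14, all at about 0.99. The 2 transporters correlated with each other at 0.96, with Mt2 at 0.67 (Slc30a1) and 0.66 (Slc39a14), with Mt1 at 0.29 and 0.26, and with Mt3 at -0.17 and -0.21.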

How the data were processed

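Retinal RNA was isolated in TRIzol, and strand-specific poly(A) libraries were aligned to mm10 with STAR (2.7.8a in the submitters' processing notes). The authors counted uniquely mapped tags in exons with HOMER, 1 isoform per locus, and deposited FPKM, unpooled, in 1 table per series. The columns follow the sample labels, 2 libraries per group.

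FPKM times length came to whole reads (tolerance 0.1) in 99.98% or more of each library's checked values, which gave the depth. Genes averaging 0.5 FPKM or more were tested as log2(FPKM + 0.5), a scale that understates fold changes of low genes, with lmFit and eBayes (trend) in limma 3.58.1 (R 4.3.3). The 8 single-elevation libraries were fitted as 4 groups (residual degrees of freedom 4), the 4 others alone (2). A call needed a p adjusted after Benjamini-Hochberg at or below 0.05 and a log2 fold change at or beyond 1 in size (for the interaction, the adjusted p alone). Scripts were tested on simulated data.

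Named by rule were the 5 members, called genes of the zinc list, and the 3 genes most correlated with each member. Mtf1, Mt4, Mip and Gfap were named outside that rule, after their values were seen, and 2 inducer lists and 8 marker lists were given by counts and sums. Members and lists were chosen with earlier results of these data known. Alternatives covered the pseudocount, filter, scaling, length trend, recovered reads, pairing and left-out libraries.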

Additional observations from a re-analysis of the deposited data

How the results depend on the processing

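Of 445 values of single members under alternative settings, 412 kept their direction and their side of the threshold, 17 newly passed, 6 no longer passed and 10 changed sign. The number of members called in 18mo control against 3mo control, 1 as reported, was 0 with no filter on low values, 2 by adjusted p alone and 0 to 2 with 1 library left out. For 18mo IOP against 3mo IOP it was 0 as reported, 1 with a pseudocount of 0.1, 1 by adjusted p alone, 2 with the length trend removed and 0 to 2 with 1 library left out. For 18mo IOP against 18mo control it was 0 to 1 with 1 library left out, and for 4xIOP it was 1 to 2, against 2 as reported. It was 0 for the interaction under each setting run.

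Signs changed in the age comparisons with the length trend removed, for Mt1 (0.23) and Slc30a1 (-0.11) in control eyes and for Mt3 (0.51) and Slc30a1 (-0.0044) in treated eyes. With a library left out, Mt2 in 18mo against 3mo control ranged from -0.096 to 0.45 and was also below 0 (-0.026) when 18mo control replicate 1 was dropped, the lowest value being without 3mo control replicate 1. Mt1 in 18mo against 3mo IOP ranged from -0.17 (without 18mo IOP replicate 2) to 0.49, with -0.13 without 3mo IOP replicate 2. The Slc30a1 interaction ranged from -0.10 (without 3mo control replicate 1) to 0.31, with -0.0032 without 18mo IOP replicate 2. The cause was not tested.

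Size factors shifted the median log2 change of all genes by -0.12 to -0.19 in the 3 comparisons of treated with control eyes and by -0.15 in 18mo against 3mo control, and changed the sign of 0 member values. They moved calls over all genes in that age comparison from 1595 higher and 1590 lower to 1059 and 1968. For 3mo IOP, 78 genes were called higher as reported, 9 with no filter, 20 with size factors and 3 with voom on recovered reads, and for 18mo IOP 16, 1, 0 and 0.

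Same-numbered libraries deviated from their group means in opposite senses (correlation across genes -0.28, -0.53 and -0.29 in the 3 sets), so the numbers were not taken as pairs. With the replicate block, members called were 1 and 0 in the age comparisons, 0 in each single-elevation set and 0 for the interaction, as without it, and 3 after 4 elevations, where Mt3 joined Mt1 and Mt2, as it did when genes averaging under 2 FPKM were left out. All genes called higher fell from 78 to 20 and from 16 to 0 in the single-elevation sets. With the numbers crossed, an alternative chosen after seeing the data, 1 member at 3 months (Mt2), 3 at 18 months (Mt1, Mt2 and Mt3) and 298 genes higher in each were called. Fitting the interaction on only the groups compared was not run, since it uses all 4. Depth limits the lowest values, such as Slc39a12 in 18mo IOP, which rests on about 32 and 4 reads.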
